A study of Rattus norvegicus with 13 samples.

Results

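The miRNAs rno-miR-199a-5p, rno-miR-199a-3p and rno-miR-214 map to a pair of hairpins of one locus. Their levels were read on miRNA arrays of fat from grown female rats whose fathers differed in diet. They are 3 of the 677 rat miRNAs on the array, matched by the systematic names in the array files, and 6 of its 1644 probes. All 3 were detected on all 13 arrays. They were chosen from the comparison of the fathers' diets, in which miR-214 had the lowest p in limma, so their differences between the diets are described here and not tested.

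There were 6 HFD daughters, whose fathers ate high-fat pellets (43% as fat), and 7 Control daughters, whose fathers ate chow (9% as fat). All were female Sprague Dawley rats; the fathers mated at 15 weeks of age with chow-fed females, the daughters were weaned to chow at 3 weeks, and tissue was collected at 14 weeks. The study set fat miRNAs of daughters against what their fathers ate. Per the design text the HFD fathers were heavier and insulin resistant, and their daughters were glucose intolerant while weighing no more than Control daughters. The sources used here give no fat depot, litter or father for any animal, so sisters could not be modelled, and p-values measure the spread between the animals as labelled.

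MiRNAs are short RNAs that pair with messenger RNAs, mainly through bases 2 to 8, the seed, and lower their output. miR-199a and miR-214 are known from connective tissue cells: in mouse they are cut from Dnm3os, a transcript that runs antisense to the dynamin gene Dnm3 and is needed for normal skeletal growth, and the factor Twist1 drives it. In fat such RNA is known from stromal cells, among them fibroblasts, preadipocytes and cells of vessel walls, more than from mature adipocytes. In human and mouse the mature miR-199a-3p sequence is also made from paralogous miR-199 genes, and an array probe for it cannot tell these sources apart.

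The mature sequences below, from RefSeq on build GRCr8, are shown because they are what the probes read; capitals mark the seed. The first 3 are the members, and the last 2 are the other products of the miR-214 hairpin region that the array also probes.
miR-199a-5p: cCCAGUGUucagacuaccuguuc
miR-199a-3p: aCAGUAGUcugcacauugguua
miR-214: aCAGCAGGcacagacaggcag
miR-214*: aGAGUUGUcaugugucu
miR-3120: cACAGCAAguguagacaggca
Both strands of the Mir199a2 hairpin are members: miR-199a-5p lies at chr13:77116255-77116277 and miR-199a-3p at chr13:77116294-77116315, on the plus strand of GRCr8 and 16 bases apart. miR-214, listed by RefSeq as miR-214-3p, lies at chr13:77121713-77121733 on the same strand. The Mir214 hairpin starts 5329 bases after the end of miR-199a-3p. All lie inside the span of Dnm3, which runs on the minus strand. The miR-199a-3p and miR-214 sequences share their first 4 bases and 5 of 7 seed positions. None of the 3 seeds is shared with another of the 724 mature rat sequences in the RefSeq table. No mature miR-761 was found there, although the array probes it, so its seed was not compared and the members' seeds are not shown to be unique. miR-761 had 0 of 260 spots well above background over the 13 arrays.

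The hairpin of miR-214 is shown with the miR-214 arm in capitals. Of the products of this region that the array probes, only miR-214 gave signal here.
Mir214: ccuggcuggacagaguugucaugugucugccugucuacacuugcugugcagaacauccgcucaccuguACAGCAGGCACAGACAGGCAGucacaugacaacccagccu
The arm fills bases 69 to 89 of the 108 of the hairpin at chr13:77121645-77121752. The opposite arm, miR-214*, had 0 of 260 spots well above background over the 13 arrays, and so did miR-3120, which is read from the other DNA strand of the same region. Neither was well above background on any array, so the array gives no level for them.

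Each member was read by 2 probes of 10 spots each, and every spot of the 6 probes was well above background on every array. The coefficient of variation between the spots of a probe had a median of 3.59% to 5.83% over the 6 probes and reached at most 8.46%. Background-subtracted signals of miR-214 ran from 177 to 273 units in HFD daughters and from 180 to 455 units in Control daughters over both probes. Those of miR-199a-3p ran from 1626 to 4267 units in HFD daughters and from 1658 to 4955 units in Control daughters. Such raw signals move with the brightness of the array, so levels are given below as log2 of the signal over each array's 75th percentile of the probes detected on all arrays. Probes differ in brightness, so these values do not show which of the miRNAs is more abundant.

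Over all miRNAs, 176 were detected on at least 6 arrays and tested. The arrays detected between 155 (Control 627) and 196 (HFD 663) miRNAs, with 0 saturated spots. In limma 0 of the 176 passed at an adjusted p under 0.05 for HFD against Control (0% called), 2 had an unadjusted p under 0.05 (1.14%), and for 0 of them (0%) did the groups not overlap. None of the 3 members passed. The muscle miRNAs miR-1 and miR-133b were high on HFD 629, Control 662 and Control 664, and Control 658 stood apart in some stromal miRNAs, as given below. In a piece of bulk fat, fewer cells of a type and less RNA per cell cannot be told apart.

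miR-199a-5p, known to lower caveolin-1 in human fibroblasts, had a log2 level with a lowest value of -2.33, a median of -2.13 and a highest of -2.02 in the 6 HFD daughters. In the 7 Control daughters the lowest was -2.22, the median -1.87 and the highest -0.69. The HFD levels lay close together, and 4 Control daughters lay above all of them, but the lowest Control level (627) lay among the HFD levels, so the groups overlapped. The highest Control level was that of 658; the next Control level was -1.73. Means were -2.15 ± 0.14 (SD, n = 6) in HFD daughters and -1.77 ± 0.51 (SD, n = 7) in Control daughters, a log2 difference of -0.38 ± 0.20 (SE), or 0.769-fold. Without Control 658 the Control mean was -1.95 ± 0.20 (SD, n = 6) and the log2 difference -0.20 ± 0.093 (SE). That array thus moved the difference of miR-199a-5p by more than 1.5 times.

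miR-199a-3p, the other strand of the same hairpin, known to lower mTOR and MET in human cells, had a log2 level with a lowest value of 0.073, a median of 0.45 and a highest of 0.54 in HFD daughters. In Control daughters the lowest was 0.38, the median 0.51 and the highest 1.09. Only 2 HFD daughters (624 and 660) lay below all Control daughters, and 3 Control daughters (658, 662 and 664) lay above all HFD daughters. Means were 0.37 ± 0.19 (SD, n = 6) in HFD daughters and 0.62 ± 0.26 (SD, n = 7) in Control daughters. The log2 difference was -0.26 ± 0.12 (SE), or 0.838-fold, and -0.18 ± 0.10 (SE) without Control 658.

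miR-214, known to lower Ezh2 in mouse muscle, was the member whose groups came closest to parting. Its log2 level had a lowest value of -3.41, a median of -3.18 and a highest of -3.02 in HFD daughters. In Control daughters the lowest was -3.05, the median -2.88 and the highest -2.21. Of the HFD daughters 5 of 6 lay below every Control daughter, and 6 of 7 Control daughters lay above every HFD daughter; the overlap was between HFD 663 and Control 631. Means were -3.20 ± 0.14 (SD, n = 6) in HFD daughters and -2.82 ± 0.28 (SD, n = 7) in Control daughters, 0.773-fold. The log2 difference was -0.37 ± 0.12 (SE), and -0.27 ± 0.067 (SE) without Control 658, where the Control mean was -2.93 ± 0.080 (SD, n = 6).

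For each of the 3 members all 6 HFD daughters lay below the Control mean, as did those of 15 of the 176 miRNAs tested (8.52%). Log2 differences were below 0 for 85 of the 176 (48.3%), with a median over all of 0.0028. Since this comparison chose the members, nothing is read from these counts. Control 658 was the highest array for all 3 members, and the Control SD of miR-199a-5p was 0.51 with it and 0.20 without it.

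**Figure D1:**
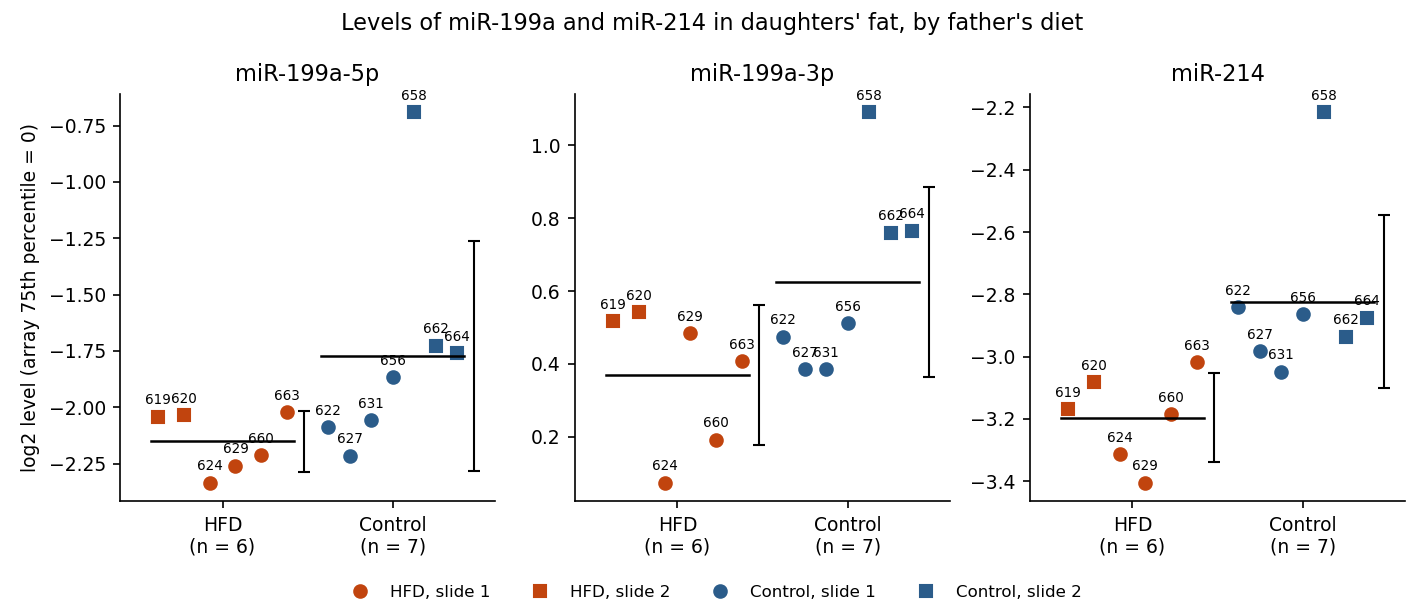
Log2 level of each miRNA (y axis, relative to each array's 75th percentile, own scale per panel) in HFD and Control daughters; each point is 1 array with its animal number, circles are slide 1 and squares slide 2, lines are group means and bars ± SD. Control 658 is the highest array in all 3 panels, and for miR-214 the groups overlap only between HFD 663 and Control 631.

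Both probes of each miRNA gave close to the same difference. For miR-199a-5p they gave -0.37 ± 0.20 and -0.38 ± 0.23 (SE), for miR-199a-3p -0.26 ± 0.14 and -0.25 ± 0.12 (SE), and for miR-214 -0.38 ± 0.12 and -0.36 ± 0.13 (SE), all as log2 of HFD over Control. Without Control 658 the 6 probes ran from -0.28 to -0.18. Across the 13 arrays the deviations of both probes of a miRNA from their group means followed each other, with r = 0.99 for miR-199a-3p, 0.99 for miR-199a-5p and 0.99 for miR-214. Without Control 658 these were 0.98, 0.97 and 0.94 over 12 arrays. These correlations describe the reading of 1 RNA sample by 2 probes, which share the array, the label and the scaling. The log2 gap between both probes varied between arrays by an SD of 0.047 for miR-199a-3p, 0.072 for miR-199a-5p and 0.042 for miR-214. The levels themselves varied by SDs of 0.23, 0.39 and 0.23 within groups. The spread between arrays was thus several times that between probes of an array, and it holds labelling, hybridisation and slide as well as the animals.

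**Figure D2:**
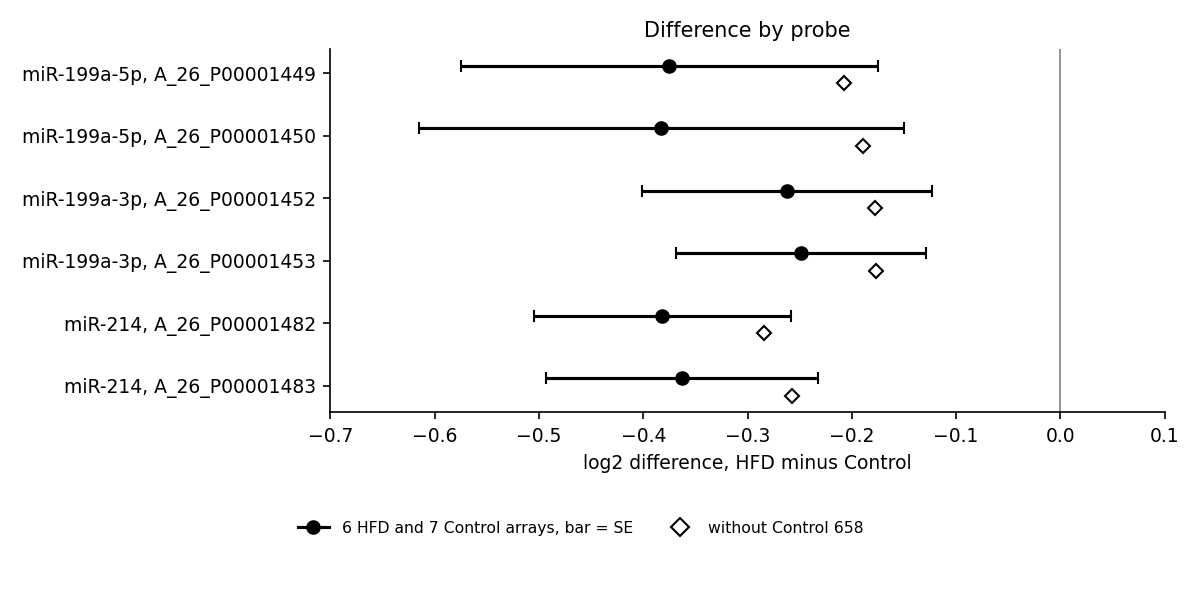
Log2 difference, HFD minus Control (x axis), for each of the 6 probes (rows); filled circles use 6 HFD and 7 Control arrays with bars of 1 SE, and open diamonds leave out Control 658. All 6 probes lie between -0.38 and -0.25 with all arrays and between -0.28 and -0.18 without Control 658.

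Differences between members on the same array do not depend on the scaling of arrays. Their size holds the brightness of the probes, so only their changes from array to array are read. The log2 signal of miR-199a-3p minus that of miR-199a-5p, the strands of one hairpin, ran from 2.40 to 2.74 in HFD daughters with a median of 2.49. In Control daughters it ran from 1.78 to 2.60 with the same median of 2.49. The low value of 1.78 was that of Control 658, where the 5p strand was thus raised more than the 3p strand; the other 6 Control arrays lay between 2.38 and 2.60. The groups' means of this gap were 2.52 ± 0.13 (SD, n = 6) in HFD daughters and 2.40 ± 0.28 (SD, n = 7) in Control daughters, 0.12 apart, or 0.021 without Control 658. Of miR-199a-5p minus miR-214 the means were 1.05 ± 0.076 (SD, n = 6) in HFD daughters and 1.05 ± 0.27 (SD, n = 7) in Control daughters. This gap was 1.52 on Control 658 and at most 1.21 on the other Control arrays, of which the lowest stood at 0.75. Of miR-199a-3p minus miR-214 the means were 3.57 ± 0.21 (SD, n = 6) in HFD daughters and 3.45 ± 0.16 (SD, n = 7) in Control daughters.

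Whether the members rose and fell together from animal to animal was tested on the deviations from the group means, which do not use the difference between the diets. Over the 13 arrays, miR-199a-3p and miR-199a-5p had r = 0.85 (permutation p = 2.0e-04, adjusted over the 3 pairs 6.0e-04) and rho = 0.81 (p = 7.0e-04, adjusted 0.0021). Without the arrays farthest from the median of miR-199a-3p (Control 658 and HFD 624) r was 0.78 (permutation p = 0.0116, n = 11), and without Control 658 alone 0.81 (permutation p = 0.00259, n = 12). In these sets the strands of the miR-199a hairpin varied together, while within slide 1, as given below, they did not pass.

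miR-199a-5p and miR-214 had r = 0.91 (permutation p = 0.00319, adjusted 0.00478) and rho = 0.79 (p = 0.00303, adjusted 0.00454). Without Control 658 and Control 662 r was 0.66 (permutation p = 0.0282, n = 11), and without Control 658 alone it was 0.57 (permutation p = 0.0396, adjusted 0.0594, n = 12). miR-199a-3p and miR-214 had r = 0.69 (permutation p = 0.0253, adjusted 0.0253) and rho = 0.60 (p = 0.0339, adjusted 0.0339). Without Control 658 and HFD 624 r was 0.16 (permutation p = 0.622, n = 11), so this relation rested on those arrays. The 3 pairs were all the relations tested. Within the 6 HFD arrays alone r was 0.72 for the strands of miR-199a (exact permutation p = 0.133, adjusted 0.200), 0.85 for miR-199a-5p with miR-214 (exact p = 0.0292, adjusted 0.0875) and 0.28 for miR-199a-3p with miR-214 (exact p = 0.589). Within the 7 Control arrays, which include 658, these were 0.94 (exact permutation p = 0.00139, adjusted 0.00417), 0.94 (exact p = 0.0327, adjusted 0.0327) and 0.83 (exact p = 0.0296, adjusted 0.0327). Whether r differs between the groups was not tested.

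**Figure D3:**
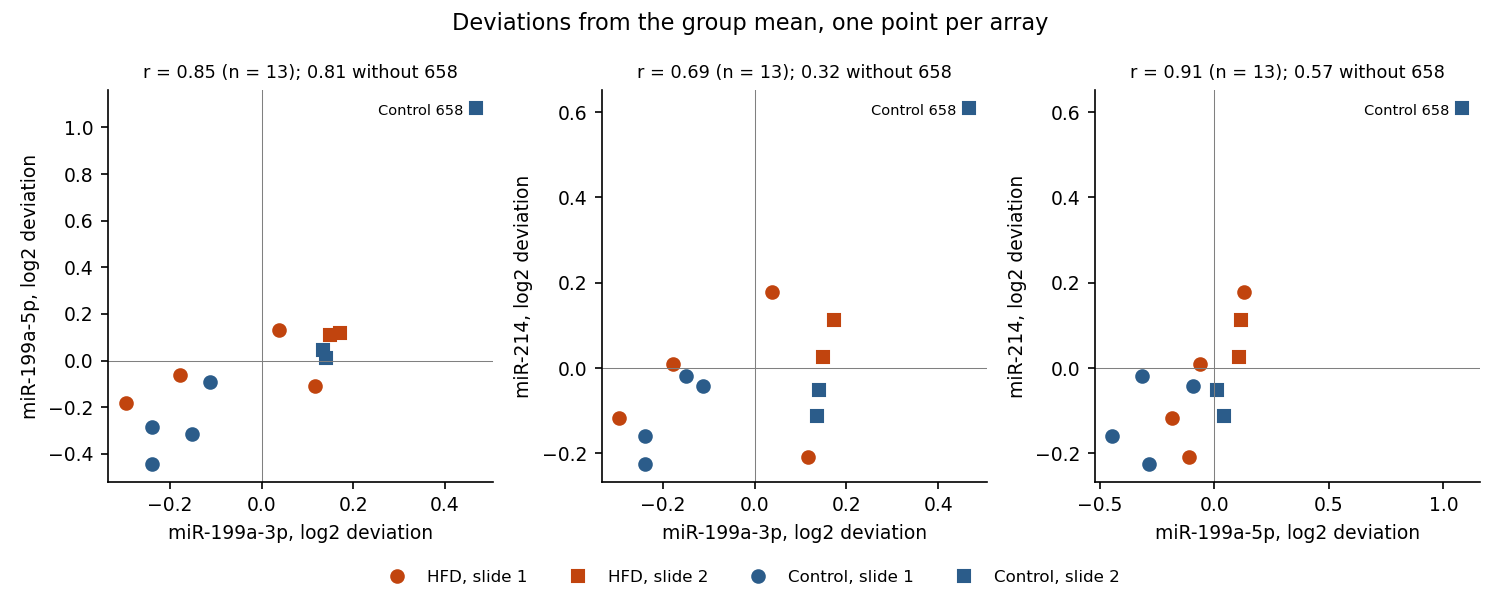
Deviation of each array from its group mean (log2) for the 3 pairs of miRNAs, 1 point per array; red-brown points are HFD and blue points Control, circles slide 1 and squares slide 2. Control 658 lies at the upper right of each panel, and r without it is 0.81, 0.32 and 0.57 from left to right.

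The arrays lay on 2 slides, each scanned once, with 4 HFD and 4 Control arrays on slide 1 and 2 HFD and 3 Control arrays on slide 2. With diet in the fit, levels on slide 2 minus those on slide 1 differed by 0.35 ± 0.083 (SE) for miR-199a-3p, 0.45 ± 0.17 for miR-199a-5p and 0.19 ± 0.12 for miR-214, in log2. In limma the adjusted p was 0.0865, 0.270 and 0.526, and 0 of 176 miRNAs (0%) passed, with 22 at an unadjusted p under 0.05. All 5 arrays of slide 2 had a miR-199a-3p level of at least 0.52, and all 8 of slide 1 at most 0.51. That split runs across both diets.

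The diet difference was below 0 on both slides for all members. For miR-214 it was -0.30 ± 0.092 (SE) within slide 1 and -0.45 ± 0.26 within slide 2, or -0.22 there without Control 658. For miR-199a-3p it was -0.15 ± 0.095 and -0.34 ± 0.13, and for miR-199a-5p -0.15 ± 0.093 and -0.65 ± 0.38. Without Control 658 the slide 2 values were -0.23 and -0.29. With slide as a block over all arrays the differences were -0.35 for miR-214, -0.22 for miR-199a-3p and -0.34 for miR-199a-5p. Whether the slides differ in the diet difference was not tested.

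Of the correlations, slide 1 alone (8 arrays) gave r = 0.52 for the strands of miR-199a (exact permutation p = 0.207, adjusted 0.310). It gave 0.67 for miR-199a-5p with miR-214 (exact permutation p = 0.0920, adjusted 0.276) and 0.18 for miR-199a-3p with miR-214 (exact permutation p = 0.750). None passed there, and slide 2 holds 5 arrays, too few for a correlation. With slide as a block over the 13 arrays r was 0.72 (permutation p = 0.0326, adjusted 0.0489), 0.92 (permutation p = 0.0187, adjusted 0.0489) and 0.60 (permutation p = 0.140) for these pairs. With slide as a block and without Control 658, a setting chosen after the data were seen, r was 0.52, 0.65 and 0.19 over 12 arrays (permutation p adjusted 0.310, 0.286 and 0.728), so none of the 3 pairs passed.

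The animal numbers in the titles fall into a lower range (619 to 631, 4 HFD and 3 Control) and an upper range (656 to 664, 2 HFD and 4 Control). Within the lower range the diet difference of miR-214 was -0.28 ± 0.094 (SE), while that of miR-199a-5p was -0.047 ± 0.093 and that of miR-199a-3p -0.011 ± 0.12. Within the upper range these were -0.38 ± 0.23, -0.61 ± 0.37 and -0.48 ± 0.17. The differences of both miR-199a strands were thus close to 0 among the lower numbers and lay in the upper range, which holds Control 658; without it they were -0.33 for miR-199a-5p and -0.38 for miR-199a-3p there, and that of miR-214 was -0.21. Levels in the upper minus the lower range, with diet in the fit, differed by 0.36 ± 0.19 (SE) for miR-199a-5p, 0.16 ± 0.12 for miR-199a-3p and 0.19 ± 0.12 for miR-214 (limma adjusted p = 0.595, 0.615 and 0.615). Over all miRNAs 0 of 176 (0%) passed, with 13 at an unadjusted p under 0.05. What the number ranges stand for is not given in the labels.

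**Figure D4:**
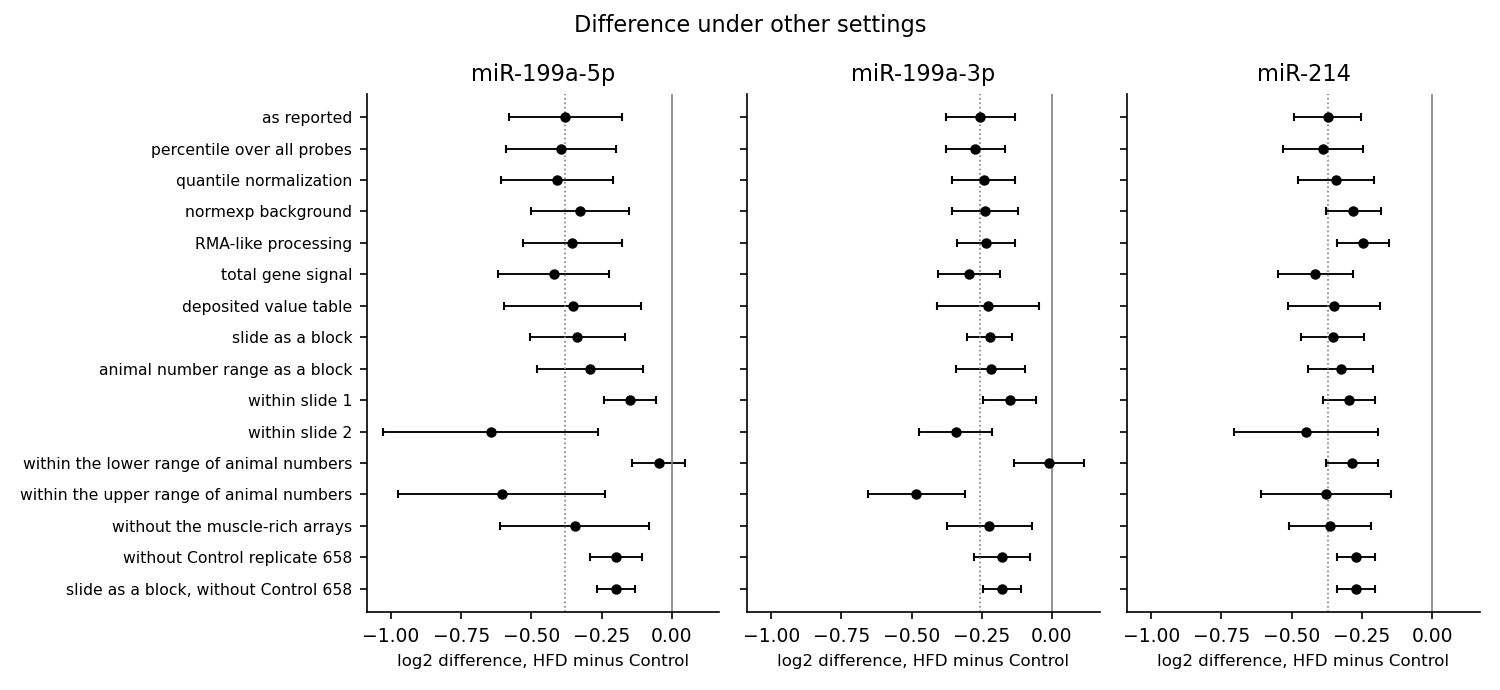
Log2 difference, HFD minus Control (x axis), of the 3 miRNAs under other ways of processing and within batches (rows); points are fitted differences, bars 1 SE, the dotted line the value with all 13 arrays. All points lie below 0, and miR-199a-3p is at -0.011 within the lower range of animal numbers.

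The miRNAs most like each member were sought by the Pearson r of deviations from the group means. Among the 141 other miRNAs detected on all 13 arrays, those with the highest r to miR-199a-5p were miR-221 (0.90), miR-145 (0.87), miR-143 (0.87), miR-29a* (0.85) and miR-28 (0.73). For miR-214 they were miR-221 (0.92), miR-145 (0.83), miR-143 (0.83), miR-181c (0.72) and miR-347 (0.69). miR-143 and miR-145 are known from smooth muscle of vessel walls, and miR-221 from vessel cells and preadipocytes. Without Control 658 the r of miR-199a-5p with miR-221, miR-145 and miR-143 was 0.22, 0.024 and -0.12, and that of miR-214 was 0.58, -0.075 and -0.15. The high r with miR-143 and miR-145 thus rested on that array, as did that of miR-199a-5p with miR-221. Without it, the r of miR-199a-5p was 0.15 with miR-28 and 0.57 with miR-29a*. That of miR-214 was then 0.33 with miR-181c and 0.60 with miR-347.

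For miR-199a-3p the most alike were miR-1949 (0.82), miR-450a (0.80), miR-101a (0.79), miR-106b (0.77) and miR-29a* (0.76). Without Control 658 these were 0.75, 0.76, 0.70, 0.62 and 0.53. All r are given as a description over 13 arrays that share the scaling, and the miRNAs were picked for their r. Among the 143 miRNAs detected on all arrays other than the one compared, miR-199a-5p ranked 1 in likeness to miR-199a-3p, and it ranked 1 without Control 658 too. miR-214 ranked 1 in likeness to miR-199a-5p, or 5 without that array, and miR-199a-3p ranked 5 there, or 2 without it. In likeness to miR-199a-3p, miR-214 ranked 9, or 42 without Control 658. In likeness to miR-214, miR-199a-5p ranked 2, or 5 without that array, and miR-199a-3p ranked 6, or 22 without it.

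**Figure D5:**
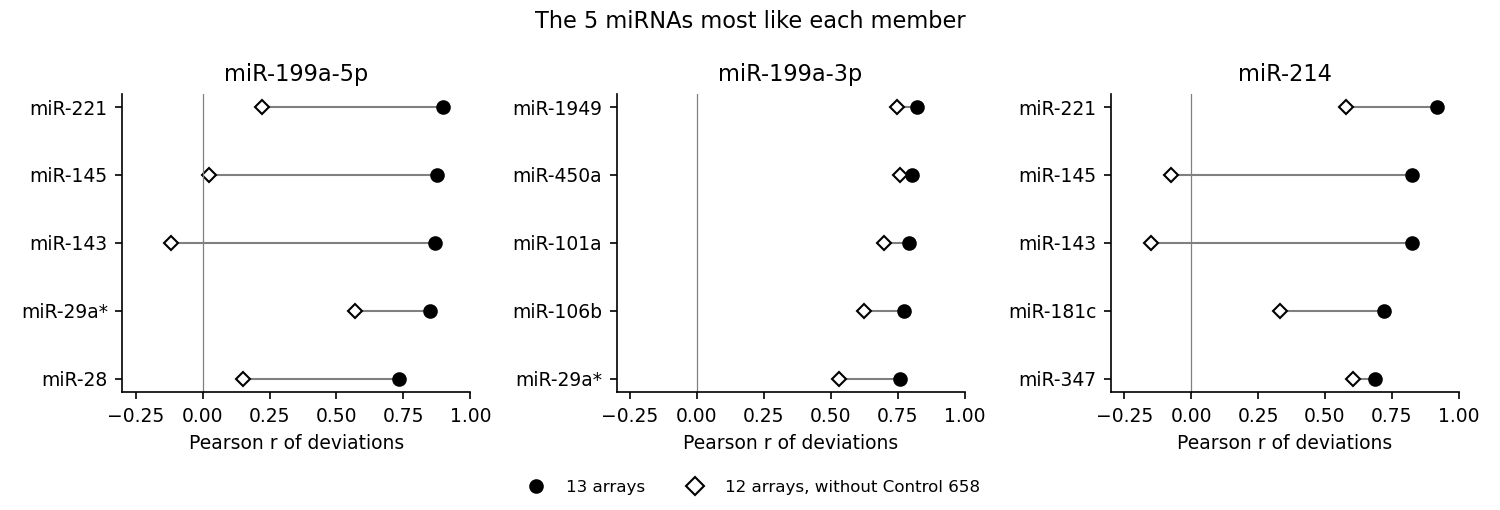
Pearson r (x axis) of the deviations of each miRNA named in the rows with miR-199a-5p, miR-199a-3p and miR-214 (panels); filled circles use 13 arrays and open diamonds 12 arrays without Control 658. For miR-143 and miR-145 the r falls to between -0.15 and 0.024 without that array, while the 5 rows of miR-199a-3p stay at 0.53 or above.

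Control 658 had a miR-143 level of 3.74, where HFD daughters ran from 1.36 to 1.52 and the other Control daughters from 1.10 to 1.77. Its miR-145 level was 0.093, against -2.46 to -2.12 in HFD daughters and at most -1.96 in the other Control daughters. Its miR-221 level was -1.75, against -3.95 to -3.61 in HFD daughters and at most -3.34 in the other Control daughters. The array thus held the highest miR-143, miR-145 and miR-221 signal of the 13, together with the highest levels of all 3 members. miR-222, listed for stromal cells as miR-143, miR-145 and miR-221 were, was also highest there, at -3.87. The other Control daughters were at most at -5.48, and all HFD daughters were at the floor of -5.67. The remaining miRNAs listed for stromal cells did not share this rise. On Control 658 miR-22 at 1.01 and miR-10b at -0.085 were the lowest of the 13 arrays. On the same array miR-125b-5p at 1.78, miR-100 at -1.88 and miR-152 at -2.56 lay within the range of the other arrays. miR-100, miR-152 and miR-222 were named after their values were seen.

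Of the 9 miRNAs listed for stromal cells, 2 were higher and 7 lower in HFD daughters, 0 passed the test, and the median log2 difference was -0.097, against 0.0028 over all 176. Of this list miR-125b-5p differed by -0.072, miR-143 by -0.35, miR-22 by 0.092 and miR-10b by 0.037, in log2 of HFD over Control. Without Control 658 miR-143 differed by -0.023, miR-22 by 0.055 and miR-10b by -0.020, while miR-145 differed by -0.28 with that array and 0.069 without it. The list then again had 2 higher and 7 lower, with a median of -0.080. The summed linear level of the list ran from 10.2 to 10.66 in HFD daughters, and from 10.1 to 21.6 in Control daughters, of which all but Control 658 were at most 12.3. miR-221 differed by -0.52 ± 0.27 (SE), and by -0.26 without Control 658.

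The 4 miRNAs known from fibrosis all had differences below 0, with 0 past the test and a median of -0.083: miR-21, which rises in scarring tissue, differed by -0.12, and miR-29a, miR-29b and miR-29c, known to hold back collagen genes, by -0.097, -0.069 and -0.028. Without Control 658 these were -0.044 for miR-21 and -0.062, -0.0011 and -0.015 for the miR-29 members, with a median of -0.030. Summed, they ran from 7.92 to 8.98 in HFD daughters and from 8.16 to 11.5 in Control daughters, highest in Control 658. The 6 of 7 adipocyte miRNAs on the array all had differences above 0, with 0 past the test and a median of 0.11, among them miR-365 at 0.14, miR-378 at 0.16, miR-107 at 0.034 and miR-193 at 0.19. Without Control 658 they stood at 0.13, 0.18, 0.0034 and 0.24, 5 of the 6 were above 0, and the median was 0.084. Their sum ran from 3.99 to 5.35 in HFD daughters and from 3.97 to 4.29 in Control daughters. Over all miRNAs, 85 of the 176 tested (48.3%) had differences below 0. The lists were chosen with earlier results of these data known, so nothing is read from the shared signs. As miR-21 and the miR-29 members have opposite known roles, their shared sign is not read as more or less fibrosis. The part of these cell types in the members' levels was not tested.

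Markers of other cell types are given for the same arrays. The endothelial pair miR-126 and miR-126* differed by 0.082 and 0.086, or 0.054 and 0.072 without Control 658, with a sum of 3.01 to 3.74 in HFD daughters and 2.91 to 3.77 in Control daughters. Of the 7 blood miRNAs on the array 4 were higher and 3 lower, with a median of 0.053 and sums of 4.99 to 9.09 in HFD daughters and 3.57 to 8.81 in Control daughters. The red cell miRNAs miR-451 and miR-144 differed by 0.55 ± 0.33 (SE) and 0.59 ± 0.41, the highest differences of the 176, and the white cell miRNAs miR-142-3p and miR-223 by -0.064 and -0.11. Without Control 658 these 4 were 0.66, 0.74, -0.12 and -0.19, and the median of the list was 0.012. Of 7 epithelial miRNAs 2 were tested, miR-203 at 0.17 and miR-205 at -0.19 (0.13 and -0.29 without Control 658). Sums over all 7 ran from 0.316 to 0.415 in HFD daughters and from 0.316 to 0.391 in Control daughters. miR-200c and miR-141 were at the floor on all arrays. Of 7 neural miRNAs 3 were tested, miR-338 at -0.33 ± 0.89 (SE), miR-204 at -0.21 and miR-128 at -0.068, or -0.72, -0.15 and -0.082 without Control 658. The median of the 3 tested was -0.21. Sums over all 7 neural miRNAs ran from 0.170 to 1.48 in HFD daughters and from 0.231 to 1.34 in Control daughters. miR-9*, miR-124 and miR-219-5p were at the floor on all arrays. None of these lists had a member past the test.

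Of 6 muscle miRNAs 3 were tested, miR-1 at -0.18 ± 1.67 (SE), miR-133b at -0.54 ± 1.67 and miR-499 at -0.10 ± 0.20, or -0.24, -0.42 and -0.072 without Control 658. The sum over all 6 muscle miRNAs ran from 0.151 to 13.3 in HFD daughters and from 0.164 to 11.5 in Control daughters. miR-208 was at the floor on all arrays. Without the 3 arrays rich in them (HFD 629, Control 662 and Control 664) the diet differences were -0.36 ± 0.15 (SE) for miR-214, -0.22 ± 0.15 for miR-199a-3p and -0.35 ± 0.27 for miR-199a-5p. These lie close to the values over all 13 arrays. On those 10 arrays, which include Control 658, r was 0.91 for the strands of miR-199a, 0.91 for miR-199a-3p with miR-214 and 0.96 for miR-199a-5p with miR-214 (permutation p adjusted 0.00387, 0.00645 and 0.00645).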

How the data were processed

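Total RNA (100 ng, Cy3) of each animal was hybridised to 1 single-colour Agilent rat miRNA array, per the labels' protocols. Per the file headers, the authors read the scans with Agilent Feature Extraction 10.7.3.1; the deposited intensity per spot is background-subtracted and not normalized between arrays. The deposited value table holds log2 of the total gene signal (25 of 2569 values differed by more than 0.001), blank where not detected, uncentred, with column medians of 6.95 to 7.77; RMA and Partek are named, without a version, in the submitters' processing notes, and their role is not given in the sources used here.

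Spots with an outlier flag were dropped and the mean of a probe's remaining spots was scaled. The scale of an array was its 75th percentile among 260 probes that every array detected. Scaled values below a floor (log2 of -5.67) were set to it, and the log2 values of a miRNA's probes were averaged. A probe counted as detected with at least 0.5 of its spots well above background; a miRNA was tested where detected on at least 6 arrays. Groups, taken from the titles, were fitted in limma (version 3.58.1, under R 4.3.3; lmFit, eBayes, two-sided, Benjamini-Hochberg, threshold 0.05), tested on simulated data. Correlations used 100000 two-sided permutations of arrays within groups, or all of them in subsets where p is called exact. The normexp alternative used spot and background medians, as no mean signal column was present. Lists covered stromal, fibrosis, adipocyte, muscle, endothelial, blood, epithelial and neural miRNAs. Named were the members, miR-214*, the 5 miRNAs most like each member and the brightest 4 of each list. miR-3120, miR-761, the list members at the floor, miR-100, miR-152 and miR-222 were named after their values were seen. The members and lists were chosen with earlier results of these data known. The array grid is of build rn4, whereas sequences and positions are of GRCr8. Slide and animal number range served as batches, and sensitivity to scaling, floor, probes and single arrays was computed. With 13 arrays, their number limits the precision.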

Additional observations from a re-analysis of the deposited data

Results flagged for a closer look

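On Control 658 the log2 level of miR-199a-5p was -0.69, with the next Control level at -1.73. This gap made up 0.680 of the range of the 7 Control arrays, above Dixon's critical value of 0.568. On the same array miR-214 stood at -2.21, with the next at -2.84, a gap of 0.752 of the range. The level of miR-199a-3p there, 1.09, was the highest too but not far enough from the next to be singled out. Of the 6 combinations of miRNA and group examined, these 2 were picked out, and chance alone picks out about 1 in 20. Both lie on 1 array, Control 658, so they do not count as 2 independent cases. The same array had the highest miR-143, miR-145, miR-221 and miR-222 levels of all 13. It had the lowest miR-22 and miR-10b, which were listed for stromal cells too. What set it apart was not tested.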

How the results depend on the processing

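The number of miRNAs past the threshold was 0 with all 13 arrays and under all 24 other settings and 13 removals of 1 array. The diet differences of the 3 members stayed below 0 in each of the 21 other settings and 13 removals. Leaving out 1 array in turn, they ran from -0.30 to -0.18 for miR-199a-3p, -0.45 to -0.20 for miR-199a-5p and -0.41 to -0.27 for miR-214, each smallest in size without Control 658. Values moved by over 1.5 times with arrayWeights (-0.16 for each miR-199a strand) and, for miR-214, with RMA-like processing (-0.25). Normexp background gave miR-214 -0.28. Both miR-199a strands also moved by over 1.5 times within slide 1 and within each number range, as given above. So did miR-199a-5p within slide 2 and without Control 658. Only the value of miR-199a-3p within the lower number range, -0.011, moved by more than 1 SD between replicates. No paired analysis was possible because the groups share no animal numbers.

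Removals of 1 array gave r from 0.81 to 0.88 for miR-199a-3p with miR-199a-5p, 0.32 to 0.79 for miR-199a-3p with miR-214 and 0.57 to 0.94 for miR-199a-5p with miR-214. Without Control 658 the calls of miR-199a-3p with miR-214 (r 0.32, permutation p adjusted 0.351) and miR-199a-5p with miR-214 (0.57, adjusted 0.0594) were lost. Other calls were lost as follows, and the cause was not tested beyond the smaller number of arrays in subsets. For miR-199a-3p with miR-214, r was 0.48 with quantile normalization, 0.43 with RMA-like processing, 0.60 with slide and 0.69 with number range as a block, and 0.16 without the 2 farthest arrays. For the pairs miR-199a-3p with miR-199a-5p, miR-199a-3p with miR-214 and miR-199a-5p with miR-214 in turn, r was 0.52, 0.18 and 0.67 within slide 1; 0.74, 0.45 and 0.68 within the lower and 0.90, 0.84 and 0.98 within the upper number range; 0.72, 0.28 and 0.85 in HFD arrays only; and 0.52, 0.19 and 0.65 with slide as a block and without Control 658, a setting chosen after seeing the data. Every spot of the members was well above background.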
